A study of Mus musculus with 24 samples.

Results

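Transcription termination site (TTS) intervals were the stretches of open chromatin that the deposited peak annotation placed at the end of a gene. They were taken as all intervals on chromosomes 1 to 19 whose annotation begins with TTS and whose annotated distance to the nearest transcription start site (TSS) was over 1000 bp on either side, which gave 7478 of 145143 intervals. The intervals come from ATAC-seq, in which the Tn5 transposase cuts and tags accessible DNA, so that the count in an interval measures how open it is. Mouse embryonic stem cells (mESC) of 4 lines were sampled at 0, 30, 60, 90, 120 and 150 min after doxycycline, with 1 library per line and time. The knockout Firre line lacks Firre and carries a Firre inducible transgene. The wild type Firre line carries the transgene beside its own gene. The knockout control lacks Firre, and the labels name neither a deletion nor a transgene for the wild type control. All 4 lines received doxycycline and were grown on gelatin with LIF and inhibitors of MEK (PD0325901) and GSK3 (CHIR99021). The series' design text says that the controls serve to tell Firre's effect apart from doxycycline's. Counts of 23 libraries were used: 6 of the knockout Firre line, 5 of the wild type Firre line, whose 60 min library was not analysed here, 6 of the knockout control and 6 of the wild type control. The labels name neither the promoter of the transgene nor separate cultures or clones. The spread behind each p-value is therefore that among libraries within lines, shared by all 4 lines. In the time responses the knockout and wild type backgrounds act as replicates of the transgenic response. Genotype and clone cannot be told apart.

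Firre is an X-linked long noncoding RNA that stays in the nucleus and has been tied to the spatial arrangement of chromosomes. At the end of a gene, RNA polymerase II transcribes a polyadenylation signal, the nascent RNA is cut and polyadenylated, and the polymerase then slows and leaves the template over a stretch downstream. Gene ends can also be open because an enhancer, an insulator site or the start of a neighbouring gene lies there.

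Of the 7478 intervals, 90 (1.20%) held a RefSeq gene start, with 97 start windows between them. The 250 bases upstream of the start are shown for the 4 most open such intervals that hold the start of another gene with an established name and whose window lay outside every other RefSeq gene, because they show that an interval at one gene's end can contain the start of another (RefSeq, GRCm38.p6). Capitals mark GC boxes (GGGCGG or its reverse complement) and CCAAT boxes (CCAAT or its reverse complement). The Dck window lies at the end of Mob1b, at chr5:88764763-88765012 on the plus strand. The Rbm15b window lies at the end of Manf, at chr9:106887076-106887325 on the minus strand. The Ndst2 window lies at the end of Camk2g, at chr14:20734563-20734812 on the minus strand, and the Spg21 window lies at the end of Gm47270, at chr9:65460687-65460936 on the plus strand.
Dck: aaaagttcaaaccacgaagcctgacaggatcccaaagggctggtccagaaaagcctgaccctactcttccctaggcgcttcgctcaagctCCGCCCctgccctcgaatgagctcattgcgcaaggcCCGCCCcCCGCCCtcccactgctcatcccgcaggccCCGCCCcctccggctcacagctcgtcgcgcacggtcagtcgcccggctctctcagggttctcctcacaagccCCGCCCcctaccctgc
Rbm15b: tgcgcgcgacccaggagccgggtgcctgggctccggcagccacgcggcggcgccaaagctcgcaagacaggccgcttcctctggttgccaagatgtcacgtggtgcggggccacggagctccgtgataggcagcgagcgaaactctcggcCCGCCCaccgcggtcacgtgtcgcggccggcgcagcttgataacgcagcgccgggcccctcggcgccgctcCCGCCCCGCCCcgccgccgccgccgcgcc
Ndst2: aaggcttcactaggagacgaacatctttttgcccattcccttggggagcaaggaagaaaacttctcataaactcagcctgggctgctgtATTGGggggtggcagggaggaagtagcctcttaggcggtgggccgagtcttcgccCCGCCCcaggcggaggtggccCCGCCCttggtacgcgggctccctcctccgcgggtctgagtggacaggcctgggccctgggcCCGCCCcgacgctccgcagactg
Spg21: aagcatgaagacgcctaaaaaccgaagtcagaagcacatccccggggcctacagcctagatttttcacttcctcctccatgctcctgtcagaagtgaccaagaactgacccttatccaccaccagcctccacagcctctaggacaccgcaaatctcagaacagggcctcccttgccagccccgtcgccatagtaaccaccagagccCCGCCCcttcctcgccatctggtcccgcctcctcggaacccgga

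The 4 windows held 18 (Dck), 40 (Rbm15b), 15 (Ndst2) and 11 (Spg21) CpG dinucleotides, and GC boxes numbered 5, 3, 3 and 1 in the same order, with overlapping matches counted separately. A GC box was found, on either strand, in 42.3% of the 97 windows inside TTS intervals. It was in 32.7% of all 32851 RefSeq windows of that length and in 58.6% of the 14062 windows inside promoter intervals. The TATA box TATAAA was in 10.3% of the windows inside TTS intervals, against 12.4% of all windows and 5.63% of those inside promoter intervals. CCAAT was in 24.7%, against 33.8% and 34.5%. Dck encodes deoxycytidine kinase of nucleoside salvage, Rbm15b an RNA-binding protein of the m6A writer complex, Ndst2 an enzyme of heparan sulfate synthesis and Spg21 the protein maspardin. Their windows sat in intervals with a mean over libraries of 53.2 CPM at the end of Mob1b, 40.6 at that of Manf, 14.5 at that of Camk2g and 18.8 at that of Gm47270. CPM is the count scaled to a common library size after TMM normalisation.

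The intervals belonged to the ends of 6229 genes. Of these genes, 5203 had 1 interval and 1026 had 2 or more, and the largest number, 5, was found at Abcc5, Atf7ip, Septin8 and Trak1. Protein-coding genes owned 6168 (82.5%) of the intervals, noncoding or unclassified genes 949 and pseudogenes 312. The nearest start was that of the same gene for 3985 intervals (53.3%) and that of another gene for 3493. Widths ran between 173 and 4627 bp with a median of 709.5 bp, and distances to the nearest start had a median of 7149 bp. Just inside the distance threshold stood the ends of Gm27027 (1001 bp, mean 22.97 CPM), Gm49314 (1002 bp, 0.634 CPM) and Gm47893 (1002 bp, 2.51 CPM), and just outside it those of Snhg20 (1000 bp, 5.96 CPM), Gm10193 (1000 bp, 0.404 CPM) and, at the next shorter distance, Zdhhc16 (0.950 CPM).

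Per length, gene ends were about as open as other intervals away from starts and less open than promoters. The median level over 23 libraries was 4.63 CPM per kb at TTS intervals (quartiles 3.52 and 6.76), 4.77 at exonic, 4.31 at intronic, 4.45 at intergenic and 8.27 CPM per kb at promoter intervals. TTS intervals with a RefSeq start inside had a median of 8.37 CPM per kb, against 4.61 for those without. By distance to the nearest start, the median was 4.99 CPM per kb at 1 to 2 kb, 5.396 at 2 to 5 kb, 4.50 at 5 to 10 kb, 4.43 at 10 to 20 kb, 4.23 at 20 to 50 kb and 4.30 beyond 50 kb. Single intervals averaged between 0.303 and 76.3 CPM, with 1017 above 10 CPM and 806 below 1 CPM.

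**Figure D1:**
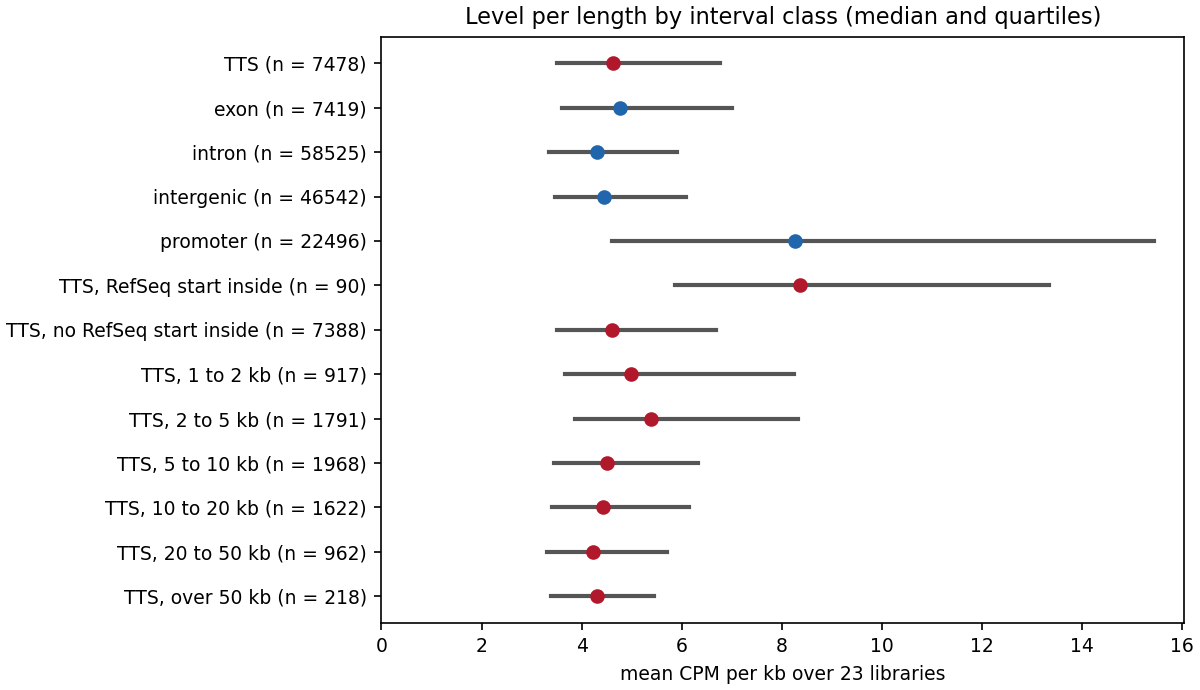
Mean CPM per kb over 23 libraries (x axis) for interval classes, with the median as a point and the quartiles as a bar; red marks TTS intervals and their subsets by RefSeq start and by distance to the nearest TSS, blue the other classes. TTS intervals (4.63 CPM per kb) sit beside exonic, intronic and intergenic ones, and those with a RefSeq start inside (8.37) sit beside promoters (8.27).

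The most open gene ends per length were those of Mob1b, Gm8493, Fgf17, Slc34a3 and Gm43094. The interval of Mob1b, which encodes an activator of the Hippo pathway kinases, averaged 53.2 CPM, or 47.8 CPM per kb (chr5:88764562-88765673), and is the one that holds the start of Dck. The interval of the pseudogene Gm8493 averaged 44.2 CPM per kb, that of Fgf17, a fibroblast growth factor, 38.3, that of Slc34a3, a sodium-phosphate cotransporter, 37.0, and that of the unclassified transcript Gm43094 35.6 CPM per kb. The widest were those of Rps25 and Rpl12, which encode ribosomal proteins, and of the antisense transcript Gm3848, at 4627, 4271 and 4226 bp. These wide intervals were less open per length, with 6.00 CPM per kb at Rps25, 13.9 at Rpl12 and 5.71 at Gm3848.

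Total counts in intervals ran between 5725518 and 14977148 per library, with a median of 7664147. Of 10 embryonic stem cell markers, 9 had a promoter interval (all but Utf1), and the median of the list was 35.3 CPM against 11.04 CPM over all promoters. Promoter intervals were present for 2 of 8 fibroblast markers (Pdgfra 27.9 CPM, Twist2 15.5 CPM), 2 of 4 blood and endothelium markers (Pecam1 3.12 CPM, Spi1 1.26 CPM) and 2 of 5 germ layer markers (T 15.6 CPM, Neurod1 6.34 CPM). The part of other cell types in the results was not tested. At the Firre locus, 18 genic intervals nearest to its start, other than an exonic one, summed to 3.68 ± 0.803 CPM in the knockout Firre line, 99.6 ± 10.04 in the wild type Firre line, 1.42 ± 0.923 in the knockout control and 87.6 ± 6.95 CPM in the wild type control (mean ± SD over libraries). The exonic interval (chrX:50569280-50570236) had 17.4 ± 3.797 CPM in the knockout Firre line, 25.4 ± 8.89 in the wild type Firre line, 7.19 ± 2.26 in the knockout control and 2.04 ± 0.472 CPM in the wild type control. So the knockout control, whose label names no transgene, had 357 counts there over its 6 libraries, at least 25 in each, and its lowest CPM was above the highest of the wild type control.

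The share of all counts that fell in TTS intervals varied little between libraries, and its mean was highest in the wild type control. The lowest, median and highest share was 3.87%, 3.94% and 4.07% in the knockout Firre line and 3.81%, 3.97% and 4.11% in the knockout control, against 4.11%, 4.19% and 4.28% in the wild type control. In the wild type Firre line the shares were 4.11% at 0 min, 4.21% at 30 min, 4.09% at 90 min, 4.11% at 120 min and 3.83% at 150 min. The knockout Firre line did not overlap with the wild type control, and the knockout control overlapped with it only at the edge. The mean was 3.95 ± 0.067% in the knockout Firre line (SD, n = 6), 4.07 ± 0.141% in the wild type Firre line (n = 5), 3.97 ± 0.122% in the knockout control (n = 6) and 4.19 ± 0.0598% in the wild type control (n = 6).

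Promoter intervals, whose share was lowest on average in the wild type control, took 35.9 ± 1.22% of the counts in the knockout Firre line and 35.1 ± 1.64% in the wild type Firre line. They took 36.1 ± 1.60% in the knockout control and 33.9 ± 0.645% in the wild type control. As a share of the counts outside promoters, TTS intervals took 6.79 ± 0.0817% in the knockout Firre line, 6.88 ± 0.0659% in the wild type Firre line, 6.86 ± 0.121% in the knockout control and 6.87 ± 0.0385% in the wild type control. On that scale the ranges of the 4 lines overlapped. A share summed over the intervals was given no test.

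**Figure D2:**
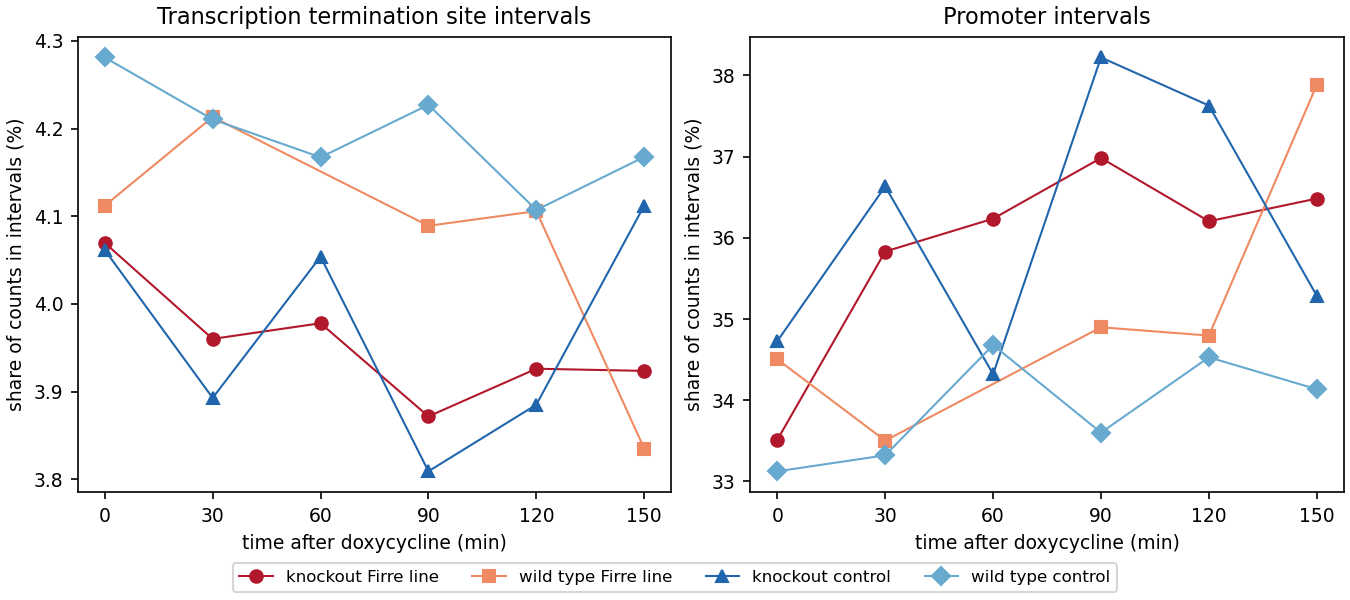
Share of a library's counts (y axis, %) in TTS intervals (left) and in promoter intervals (right) against time after doxycycline in min (x axis), 1 point per library; the axes do not start at 0, and the wild type Firre line has no 60 min point. The TTS share runs between 3.81% and 4.28%, and libraries with a low TTS share, such as the knockout control at 90 min, have a high promoter share (38.2%).

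The knockout control and the wild type control were compared first, since each serves as the control of a transgenic line. Gene ends differed in both directions: of 6739 intervals with enough counts to test, 196 were higher and 197 lower in the knockout control, 5.83% of those tested, against 7.97% of all 129515 intervals tested. All intervals were higher more often than lower (5.5% and 2.47%), while gene ends split evenly at 2.91% and 2.92%. Promoters were called most often (17.6%), and the rates of exonic (7.23%), intronic (5.79%) and intergenic intervals (5.94%) were near that of gene ends. Differences were called with edgeR's quasi-likelihood test at a Benjamini-Hochberg adjusted p of 0.05 over all intervals tested, and are log2 differences with their standard error (SE).

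The gene ends called higher in the knockout control were the more open ones, with a median level of 14.8 CPM, against 3.82 CPM for those called lower and 3.76 CPM for those not called. The interval of Mob1b and Dck had 59.8 ± 10.2 CPM in the knockout control and 43.0 ± 2.93 CPM in the wild type control (SD, n = 6 each), a log2 difference of 0.46 ± 0.09 (adjusted p = 0.000107). At the end of Fgf17 the lowest, median and highest values were 66.3, 76.3 and 93.9 CPM in the knockout control, against 45.5, 48.1 and 55.2 CPM in the wild type control. No library of the knockout control was as low as any of the wild type control there, and the log2 difference was 0.65 ± 0.08 (adjusted p = 1.07e-08). Of the 90 gene ends with a RefSeq start inside, 8 (8.89%) were higher and 2 (2.22%) lower. The shares were 5.5% and 2.47% of all intervals and 16.2% and 1.41% of promoters.

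Among called gene ends with at least 1 CPM, those of Olfr718-ps1, Slc5a10, Znhit3, 2610035D17Rik and Tia1 were higher by the most. The end of Olfr718-ps1, named as an olfactory receptor pseudogene and listed as protein coding in the annotation, had 9.301, 10.7 and 14.2 CPM (lowest, median, highest) in the knockout control, against 5.24, 5.46 and 6.51 CPM in the wild type control, with no overlap. Its log2 difference was 0.97 ± 0.12 (adjusted p = 4.1e-09). The ends of Znhit3, whose product helps assemble small nucleolar RNPs, and of the long noncoding RNA 2610035D17Rik also showed no overlap. The first had 5.62 ± 0.435 CPM in the knockout control and 3.45 ± 0.854 CPM in the wild type control, and the other 8.83 ± 1.29 and 5.59 ± 0.742 CPM in the same order. Those of Slc5a10, a sodium-dependent sugar transporter, and Tia1, an RNA-binding protein of stress granules, overlapped between the lines and differed by 0.75 ± 0.16 and 0.66 ± 0.18.

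Those lower by the most in the knockout control, at this same minimum level, were gene ends with few counts: Gm34411, Tspan18, Cass4, Gm16023 and 1600019K03Rik. Only the end of Tspan18, a tetraspanin of the cell membrane, was separated between all libraries of both lines, at 0.262, 0.926 and 1.32 CPM in the knockout control against 1.58, 2.100 and 2.38 CPM in the wild type control (log2 difference -1.22 ± 0.29, adjusted p = 0.00251). Cass4, which encodes an adhesion scaffold of the Cas family, had 0.652 ± 0.246 CPM at its end in the knockout control and 1.503 ± 0.741 CPM in the wild type control (log2 difference -1.17 ± 0.34). The noncoding Gm34411, Gm16023 and 1600019K03Rik differed by -1.24 ± 0.35, -1.08 ± 0.30 and -1.08 ± 0.34. The call was lost in 4 of 32 other settings at Gm34411, 1 of 32 at Tspan18, 8 of 32 at Cass4, 5 of 32 at Gm16023 and 11 of 32 at 1600019K03Rik.

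By chromosome, gene ends of chromosome 11 had the highest share called higher; no test was made of a chromosome. Of its 584 tested gene ends, 75 (12.8%) were higher and 0 lower in the knockout control, against 5.5% and 2.47% of all intervals tested. Their median log2 difference was 0.11, whereas the medians of the other 18 chromosomes lay between -0.12 and -0.01. No share was computed over all intervals of chromosome 11, so the shift cannot be called particular to gene ends. Against the wild type control's mean, the knockout control's library medians there were 0.168, 0.0742, 0.156, -0.00735, 0.0527 and 0.186 in time order. Slc5a10, Znhit3 and 2610035D17Rik are on this chromosome. Without it, 121 gene ends were higher and 197 lower. In the knockout Firre line against the knockout control, 3 gene ends of chromosome 11 were higher and 10 lower, with a median of -0.09. Both comparisons share the knockout control, so this is no separate shift. Against the wild type control's mean, the library medians of chromosome 11 averaged 0.04 in the knockout Firre line and 0.10 in the knockout control. The chromosome 11 median stayed positive when libraries were scaled to total counts (0.02, with 45 higher and 5 lower), by DESeq2 (0.12) or by offsets that depend on level (0.12), and with promoter share as a covariate (0.21).

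**Figure D3:**
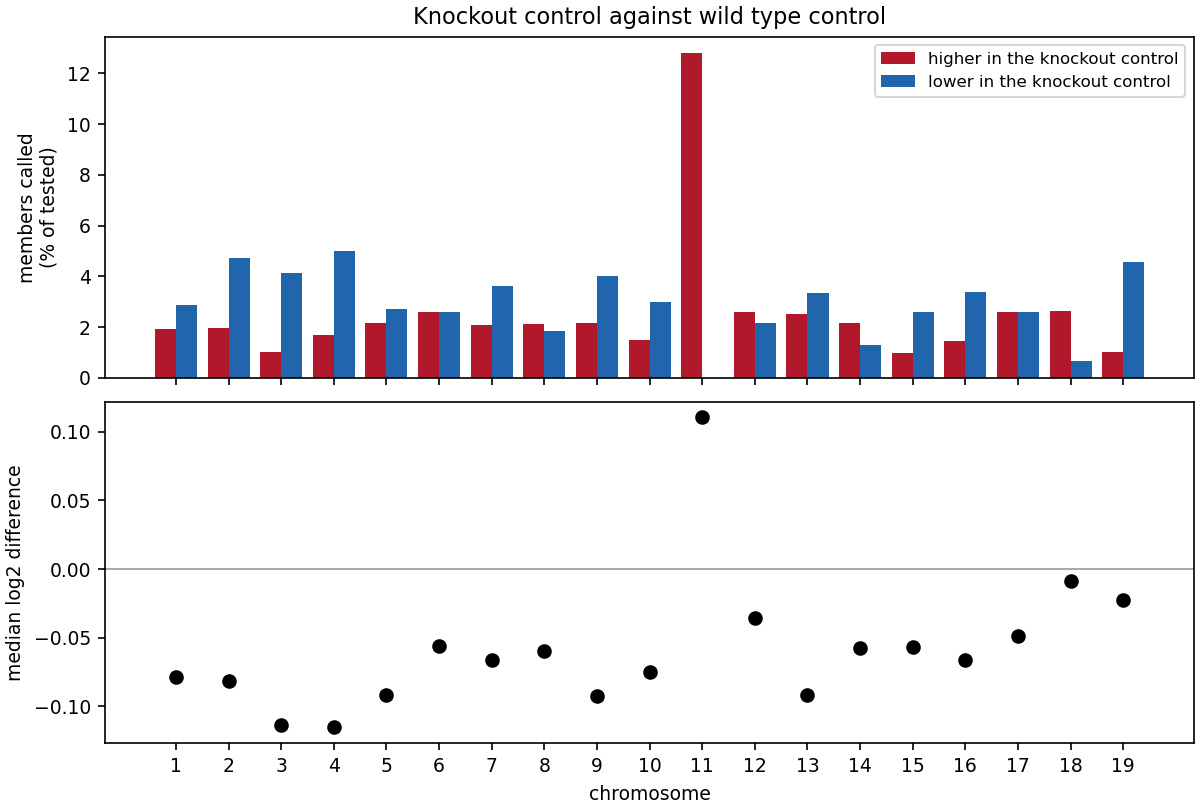
Gene ends of the knockout control against the wild type control by chromosome (x axis), as the percent of tested intervals called higher (red) or lower (blue) in the knockout control (top) and the median log2 difference (bottom). Chromosome 11 has 12.8% higher, 0 lower and a positive median of 0.11, and all other chromosomes have medians below 0.

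The direction of these calls moved with the tool, the scaling and a few libraries. DESeq2 called 136 gene ends higher and 37 lower, and 5401 higher and 633 lower over all intervals. It gave no adjusted p at Gm34411, Tspan18, Cass4, Gm16023 and 1600019K03Rik, so its split does not cover all the same gene ends. Scaling to total counts, which shifted the median of all intervals to -0.11, called 103 gene ends higher and 403 lower. Over all intervals it called 3946 higher and 7008 lower, so these shifts were not particular to gene ends. With the promoter share of each library as a covariate 5 gene ends were called, of which 4 were among the 393, and 56 over all intervals. Of the gene ends named in the text only that of Gm7986 was among the 5. The differences kept their sign at 371 of the 393, and the median SE over all intervals was 0.258 with the covariate, against 0.163 without it. Without the knockout control at 30 min, the library with the fewest counts, and at 90 min, the one with the highest promoter share, 78 were called (62 higher, 16 lower), and leaving out single libraries gave between 189 (without the knockout control at 90 min) and 745 (without the knockout control at 150 min).

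Setting the knockout Firre line against the knockout control asks what the transgene adds where the gene itself is deleted. Of 6739 gene ends, 37 were higher and 28 lower, 0.965% of those tested, against 0.913% of all intervals (0.569% higher, 0.344% lower), so gene ends were called about as often as intervals in general. The gene ends called higher had a median level of 4.79 CPM and those called lower 10.9 CPM. The knockout control of this comparison is the line with counts in the Firre exonic interval, given above. DESeq2 called 10 gene ends (6 higher, 4 lower), and 150 over all intervals (93 higher, 57 lower). Leaving out single libraries gave between 28 gene ends (without the knockout Firre line at 150 min) and 82.

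The gene ends higher by the most in the knockout Firre line were those of Mal, Pvalb, Zfp493, Gm28557 and Zfp961. The end of Mal, which encodes a proteolipid of myelin and lymphocytes, had 3.41, 4.39 and 5.66 CPM (lowest, median, highest) in the knockout Firre line, against 1.38, 1.99 and 2.64 CPM in the knockout control. All 6 libraries of the transgenic line were above all 6 of the control, and the log2 difference was 1.08 ± 0.18 (adjusted p = 0.000181). The wild type Firre line had 3.002 ± 0.913 CPM there and the wild type control 3.36 ± 0.654 CPM, so the knockout control was the lowest of the 4. The zinc finger gene Zfp961 had 5.38 ± 1.03 CPM at its end in the knockout Firre line against 2.86 ± 0.582 in the knockout control (log2 difference 0.91 ± 0.16). Its family member Zfp493 had 2.08 ± 0.545 CPM in the knockout Firre line against 0.981 ± 0.346 in the knockout control (1.04 ± 0.26). The predicted protein-coding gene Gm28557, whose nearest start is that of Zfp712, had 5.08 ± 0.788 CPM in the knockout Firre line against 2.71 ± 0.573 in the knockout control (0.93 ± 0.16). None of these 3 overlapped between the lines, though Zfp493 and Gm28557 lie on chromosome 13 among zinc finger genes of similar sequence, so their counts are uncertain. Zfp493 was separated only narrowly, with 10 counts in the knockout Firre line at 90 min and 13 in the knockout control at 150 min. Its call was lost in 11 of 32 other settings.

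The gene ends lower by the most in the knockout Firre line were those of Slc26a1, Cadm3, Cyp4a29, Gm12085 and Iqce. The end of Cadm3, an adhesion molecule of neurons, had 1.33, 1.62 and 2.83 CPM in the knockout Firre line, against 1.83, 3.58 and 5.38 CPM in the knockout control, with overlap at the knockout control's 30 min library (log2 difference -0.95 ± 0.19, adjusted p = 0.00279). The end of Iqce, which encodes an IQ-motif protein of cilia, had 8.05 ± 0.577 CPM in the knockout Firre line and 11.4 ± 0.979 CPM in the knockout control, without overlap (-0.50 ± 0.11, adjusted p = 0.00423). The pseudogene Gm12085 was separated only narrowly (-0.59 ± 0.15), while Slc26a1, a sulfate anion transporter, and Cyp4a29, a cytochrome P450, overlapped and differed by -1.04 ± 0.27 and -0.64 ± 0.17. These calls were lost in 10 of 33 other settings at Gm12085, 9 of 32 at Slc26a1 and 13 of 33 at Cyp4a29.

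**Figure D4:**
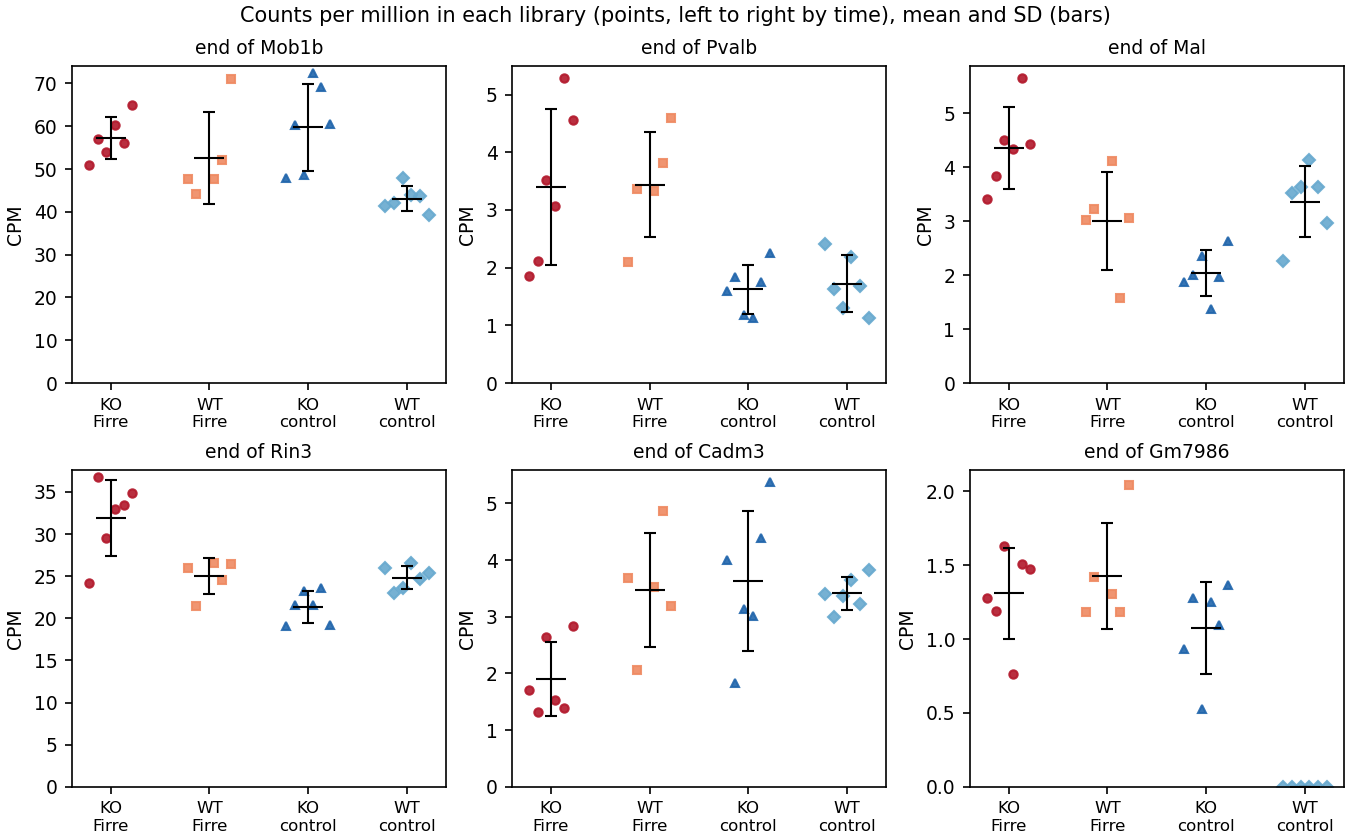
CPM (y axis) at the ends of 6 genes in each library of the 4 lines (x axis), with points left to right by time and bars for the mean and SD. The means of Mal and Rin3 are highest in the knockout Firre line, the means of Pvalb are higher in both transgenic lines than in both controls, and Gm7986 is at 0 in the wild type control.

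The wild type Firre line against the wild type control showed fewer differences. Of 6739 gene ends, 2 were higher (Pvalb and Gm7986) and 1 lower (ENSMUSG00000114616), against 0.0818% of all intervals (0.061% higher, 0.0208% lower). At the end of ENSMUSG00000114616, a long noncoding RNA without a symbol on chromosome 13 (chr13:66450696-66451771), the wild type Firre line had 4.200, 3.097, 4.45, 5.65 and 5.87 CPM in time order, against 6.797, 7.701 and 9.13 CPM (lowest, median, highest) in the wild type control. Every library of the transgenic line was below every library of the control, and the log2 difference was -0.75 ± 0.14 (adjusted p = 0.00074). Of the 65 gene ends called in the knockout background, 40 had the same sign in the wild type background, and over all tested gene ends 48.7% did.

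Pvalb, which encodes the calcium buffer parvalbumin, was the one gene end called in both backgrounds (chr15:78190584-78191484). In time order it had 1.85, 2.12, 3.51, 3.06, 5.28 and 4.56 CPM in the knockout Firre line and values of 2.100, 3.36, 3.34, 3.81 and 4.598 CPM with the transgene in the wild type background. The controls had 1.603, 1.83, 1.18, 1.13, 1.76 and 2.25 CPM in the knockout control and 2.41, 1.63, 1.297, 2.19, 1.68 and 1.13 CPM in the wild type control. The transgenic lines were within the range of the controls at 0 min and above all control libraries from 60 min on. The log2 differences were 1.08 ± 0.21 in the knockout background (adjusted p = 0.00139) and 0.95 ± 0.22 in the wild type background (adjusted p = 0.0335, lost in 12 of 33 other settings). Its Firre response, which is the mean change from 0 min in the transgenic lines minus that in their controls, was 1.19 ± 0.44, which did not pass (edgeR adjusted p = 1, unadjusted p = 0.0085). Its slope per hour was higher in the transgenic lines by 0.47 ± 0.18, which did not pass either (adjusted p = 0.972, unadjusted p = 0.00876).

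The transgenic contrasts differed between the backgrounds at 11 gene ends, with 7 positive and 4 negative differences (knockout minus wild type background), against 0.266% of all intervals. DESeq2 called 5, of which 0 were positive, and 125 over all intervals, of which 1 was positive. It gave no adjusted p at the ends of Rin3 and Nsd3, so its count does not bear on them. Without the knockout control at 150 min 39 were called, with 16 positive and 23 negative, against 444 and 810 over all intervals. The end of Rin3, an exchange factor for Rab5, had 24.2, 33.2 and 36.7 CPM in the knockout Firre line and 19.1, 21.6 and 23.6 CPM in the knockout control. In time order it had 25.99, 21.4, 26.6, 24.6 and 26.4 CPM for the wild type Firre line and 22.97, 25.01 and 26.5 CPM in the wild type control. Its contrast was 0.59 ± 0.09 in the knockout background and 0.01 ± 0.09 in the wild type background (adjusted p of the difference = 0.0168). The end of Nsd3, a histone H3 lysine methyltransferase gene, differed by 0.77 ± 0.16 in the knockout background and by -0.33 ± 0.17 in the wild type background (adjusted p = 0.00881). Mal, Gm28557 and 2 ends of ENSMUSG00000114616 were also among the 11, as were Csrp3, Snord50a, Gm49427 and Gm7986.

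The end of the processed pseudogene Gm7986 (chr12:72047819-72048076) had 0 counts in all 6 wild type control libraries. It had 61 counts in the knockout Firre line, 65 in the wild type Firre line and 52 in the knockout control, or 1.31, 1.41 and 1.09 CPM when libraries were pooled. A group of 6 libraries at 0 allows up to 0.0674 CPM (3 counts over the group), so the other lines were at least 19.5-, 20.9- and 16.1-fold higher than the wild type control. A processed pseudogene shares sequence with its parent gene, so its counts are uncertain. Among the 3 other lines the ranges overlapped.

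Over time, the question was whether gene ends opened or closed once Firre was induced, beyond what doxycycline did in the controls. No gene end passed for the mean Firre response from 30 to 150 min (0 of 6739, background 0%), where 247 had an unadjusted p under 0.05 with edgeR, and DESeq2 and limma-voom also called 0. The joint test of the Firre time course called 0 gene ends (background 0.000772%, 328 at an unadjusted p under 0.05, 0 by DESeq2 and limma-voom). The mean doxycycline response of the controls called 0 (background 0%, 361 at an unadjusted p under 0.05, 0 by DESeq2 and limma-voom), and so did the difference in slope between transgenic and control lines (background 0%, 357 at an unadjusted p under 0.05, 0 by DESeq2 and limma-voom). The median log2 value over gene ends was close to 0 for the Firre response, -0.03 for the doxycycline response and -0.02 per hour for the difference in slope.

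The gene ends with the smallest p for the Firre response, none of which passed, were those of Smim14, Ankrd40, Rev1 and Axin1. At the end of Smim14, which encodes a small membrane protein, values in time order were 1.56, 3.31, 3.14, 2.93, 3.397 and 4.43 CPM in the knockout Firre line and 1.57, 2.84, 3.14, 3.68 and 2.299 CPM for the wild type Firre line. The controls had 2.003, 1.28, 2.096, 1.63, 1.98 and 1.66 CPM in the knockout control and 4.67, 2.04, 1.95, 3.53, 2.38 and 4.11 CPM in the wild type control. The 0 min value was the lowest in each transgenic line, and the mean response was 1.60 ± 0.41 (adjusted p = 1). Ankrd40 had a response of 0.92 ± 0.27, Rev1, a translesion DNA polymerase, -2.47 ± 0.62, and Axin1, a scaffold of the Wnt pathway, -2.43 ± 0.64 (edgeR adjusted p = 1 for each of the 3).

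The other time tests also left their leading gene ends short of the threshold. For the joint time course the smallest p values were at the ends of Tnip1, an inhibitor of NF-kB signalling, and of ENSMUSG00000029462, with edgeR adjusted p values of 0.423 and 0.45. For the doxycycline response they were at the ends of Fgfr2, a fibroblast growth factor receptor gene (1.52 ± 0.45), and Kif19a, a kinesin gene (0.59 ± 0.17), on the positive side. On the negative side stood Myo18a, a myosin gene (-1.12 ± 0.31), and Rfx1, a transcription factor gene (-0.83 ± 0.23), with adjusted p values of 0.911 for the positive and 0.898 for the negative pair. For the difference in slope, the leading values per hour were 0.43 ± 0.13 at the antisense transcript Gm15579 and 0.32 ± 0.10 at Kdm2b, a histone demethylase gene, and -0.42 ± 0.12 at Hvcn1, a proton channel gene, and -0.99 ± 0.28 at Axin1 (edgeR adjusted p = 0.972 for all 4).

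A slope shared by all 4 lines was called at 7 gene ends, 6 of them rising and 1 falling with time (background 0.271%, 0.244% rising and 0.027% falling). The smallest p was at the end of Gm43852, an unclassified transcript (chr5:32711162-32714445). It had 43.8, 50.9, 57.1, 62.5, 64.9 and 67.98 CPM in the knockout Firre line, 47.8, 47.2, 59.9, 62.8 and 77.5 in the wild type Firre line, 47.1, 55.99, 55.2, 80.8, 73.4 and 68.6 in the knockout control and 40.8, 39.3, 47.6, 52.1, 53.1 and 53.1 CPM in the wild type control, in time order. In all 4 lines the 150 min value was above the 0 min value, and the slope was 0.24 ± 0.03 log2 units per hour (adjusted p = 7.34e-07).

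The ends of Rpl3, a ribosomal protein gene, Csk, whose kinase inhibits Src, Prdm2, a PR-domain methyltransferase gene, and Syngr4, a synaptogyrin gene, also rose with time, by 0.15 ± 0.03, 0.17 ± 0.04, 0.15 ± 0.03 and 0.31 ± 0.07 log2 units per hour. The other gene end that rose was that of Prdm9, a histone methyltransferase gene (slope 0.16). The end of Adgrl3, a latrophilin adhesion receptor gene, fell, with a slope of -0.35 ± 0.08 (adjusted p = 0.0318). Its 150 min value was below its 0 min value in every line, at 1.601 against 2.84 CPM in the knockout Firre line, 1.28 against 2.89 in the wild type Firre line, 2.64 against 4.81 in the knockout control and 2.27 against 3.26 CPM in the wild type control. The split of these calls moved with the scaling, with 6 rising and 6 falling on total counts and 4 rising and 7 falling with level-dependent offsets. Over all intervals these gave 426 rising and 101 falling, and 106 rising and 142 falling. With promoter share as a covariate 1 gene end was called. Leaving out single libraries gave between 1 and 85 (3178 over all intervals), the 85 without the knockout control at 150 min. The call was lost in 9 of 32 other settings at Rpl3, 10 of 31 at Csk, 12 of 32 at Prdm2, 15 of 30 at Syngr4 and 11 of 30 at Adgrl3.

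**Figure D5:**
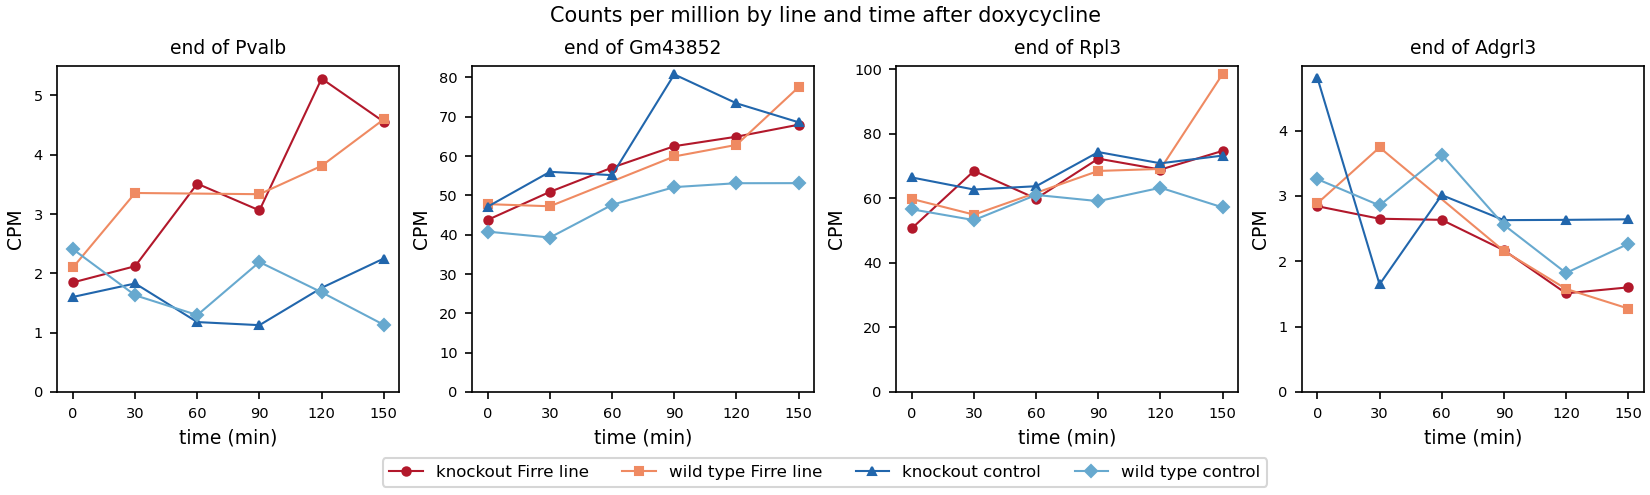
CPM (y axis) at the ends of Pvalb, Gm43852, Rpl3 and Adgrl3 against time after doxycycline in min (x axis), 1 point per library; the wild type Firre line has no 60 min library. Pvalb is above both controls in the transgenic lines from 60 min, Gm43852 is higher at 150 than at 0 min in all 4 lines, and Adgrl3 is lower.

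Gene ends were also described by gene list. Between the controls, 5.5% of all intervals were called higher and 2.47% lower, so a single call in a list this short is no result about the list. Naive pluripotency genes had 8 gene ends from 7 of 26 genes. The most open was that of Tbx3, a T-box factor, with 62.2 ± 4.86, 53.7 ± 4.15, 53.6 ± 4.11 and 49.7 ± 2.78 CPM in the knockout Firre line, wild type Firre line, knockout control and wild type control. Of the 8, 1 was called between the controls: the end of Klf5, a Krüppel-like factor, was lower in the knockout control, at 4.67, 6.24 and 6.46 CPM (lowest, median, highest) against 6.86, 7.49 and 8.77 CPM in the wild type control, without overlap (log2 difference -0.38 ± 0.12, adjusted p = 0.035). Esrrb, Dppa2 and Tet1 differed by -0.07 ± 0.13, 0.03 ± 0.11 and -0.33 ± 0.15 and were not called.

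Of 7 tested gene ends of the LIF and STAT3 list, 2 were higher in the knockout control and 0 lower, against 5.5% and 2.47% of all intervals. The end of Lifr, the LIF receptor gene, had 9.37 ± 1.42 CPM in the knockout control and 6.98 ± 1.204 CPM in the wild type control (SD, n = 6 each; log2 difference 0.42 ± 0.12, adjusted p = 0.0153), and that of Pim1, a kinase gene induced by STAT3, 6.55 ± 1.02 CPM in the knockout control and 4.86 ± 0.969 CPM in the wild type control (0.43 ± 0.14, adjusted p = 0.0307). Both sets of libraries overlapped. The end of Stat3 itself differed by 0.49 ± 0.17 and was not called (adjusted p = 0.0586). It lies on chromosome 11, whose tested gene ends had a median of 0.11. The median of the list was 0.42, with 4 of 7 values above 0, against -0.06 for all tested gene ends and -0.02 for all intervals.

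Among 9 gene ends of Wnt targets, 1 of the 2 at Rnf43, a ubiquitin ligase gene that restrains Wnt signalling, was higher in the knockout control (0.49 ± 0.12, adjusted p = 0.00492). It lies on chromosome 11, and the other differed by 0.23 ± 0.17 and was not called. Of 8 housekeeping gene ends tested, 1 was higher and 1 lower in the knockout control, against 5.5% and 2.47% of all intervals. That of Gapdh, a glycolytic enzyme gene, was higher, at 65.6 ± 6.73 CPM in the knockout control and 51.1 ± 4.66 CPM in the wild type control (0.36 ± 0.08). The 9 tested ends of Polycomb and architecture genes had a median of -0.32, and 1 was called: that of Rnf2, a Polycomb ubiquitin ligase gene, was lower, at 2.35 ± 0.243 CPM in the knockout control and 3.64 ± 0.756 CPM in the wild type control (-0.61 ± 0.19, adjusted p = 0.0286). None of the 4 ends of developmental regulators (Pax6, Gata4, Hoxc9 and Lhx1) was called. In the transgenic, between-background and time comparisons, 0 gene ends of all 6 lists passed edgeR's test.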

How the data were processed

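ATAC-seq libraries of 4 mouse embryonic stem cell lines were made by Omni-ATAC, per the labels. The authors deposited a table of raw counts per interval and an annotation of the intervals. Per the submitters' processing notes, the genome build was mm10, peaks were called with MACS2 2.2.7.1 and counts were made with featureCounts. The aligner, the handling of duplicate reads, any shift for Tn5, the annotation tool and the limits of its TTS class stand in none of the sources used here. Counts are of reads without molecular identifiers. The standard errors and p-values come from the spread among libraries. Gene ends had a median mean count of 27.3.

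Intervals with enough counts in a line (filterByExpr, minimum 10) were tested with edgeR 4.0.16 (quasi-likelihood F test, TMM scaling, R 4.3.3) over 129515 intervals, with Benjamini-Hochberg adjustment over all of them and a threshold of 0.05. Line contrasts had line and time as terms (14 residual degrees of freedom), time responses line, time and the time terms of the transgenic lines together (9), and slopes line and hours (18 shared, 15 by line). CPM values use the TMM-scaled library sizes, whereas shares use total counts. DESeq2 1.42.0, limma 3.58.1, other scalings and filters, a promoter share covariate and leaving out each of 23 libraries were alternatives, and TMM on intervals over 1000 bp from a start was added after seeing the data.

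The members and gene lists were chosen with earlier results of these data known. Gene ends are named by rule: the 5 most open per length and the 3 widest, up to 5 called in each direction with the largest difference (at least 1 CPM) in each line contrast, the 3 smallest p in the difference between backgrounds, up to 5 by p in each time test or 2 per direction where none was called, up to 5 per list by CPM, and 3 on each side of the distance threshold. Prdm9, Csrp3, Snord50a, Gm49427 and the 4 windows shown were named after their values were seen. A few gene ends are not reported here.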

Additional observations from a re-analysis of the deposited data

Results flagged for a closer look

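Of 340 groups of 5 or 6 libraries examined, 25 held a library whose gap to its nearest neighbour took a large share of the group's range, where chance flags about 1 in 20 groups. The promoter share of the knockout Firre line was low at 0 min (33.5%, gap 0.668 of the range). In the same library the ends of Prdm2 (28.4 CPM, 0.642), Gapdh (51.5 CPM, 0.719) and Eno1 (15.8 CPM, 0.635) were low and that of Axin1 was high (3.41 CPM, 0.702). Later in that line, the ends of Rps25 (31.2 CPM, 0.737) and Slc26a1 (1.38 CPM, 0.775) were high at 120 min, that of Tspan18 was high at 150 min (2.09 CPM, 0.633) and that of Myo18a low at 150 min (0.739 CPM, 0.705).

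At 150 min in the transgenic wild type line, the ends of Gm43094 (60.7 CPM, gap 0.717), Gm34411 (1.66 CPM, 0.739), Gm7986 (2.04 CPM, 0.723) and Gapdh (79.1 CPM, 0.726) were high. In that line at 30 min Olfr718-ps1 was low (6.07 CPM, 0.818) and Gm49314 high (0.903 CPM, 0.857), and at 0 min Lifr was low (4.72 CPM, 0.727). Knockout control libraries that stood apart were those of 0 min at Rpl12 (54.5 CPM, low, 0.658), 90 min at Tbx3 (61.2 CPM, high, 0.635) and 150 min at Hvcn1 (7.34 CPM, high, 0.842). In the wild type control, the 0 min library was low at Gm8493 (27.3 CPM, 0.642) and high at Ankrd40 (7.93 CPM, 0.816) and Rfx1 (5.95 CPM, 0.728), the 30 min library was high at Gm12085 (4.89 CPM, 0.647), the 90 min library high at Nsd3 (6.45 CPM, 0.758) and the 150 min library low at Kdm2b (4.82 CPM, 0.642).

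The transgenic contrasts differed between the backgrounds at several gene ends, with edgeR adjusted p values of the difference of 0.0211 at Mal, 0.0468 at Gm28557, 0.0234 at ENSMUSG00000114616, 1.54e-05 at Gm7986, 0.00881 at Nsd3 and 0.0168 at Rin3. The differences at Mal, Gm28557, ENSMUSG00000114616, Nsd3 and Rin3 were positive, meaning a higher contrast in the knockout background. DESeq2 called no positive difference, but it gave no adjusted p at Nsd3 and Rin3. That at Gm7986 was negative and rests on the 0 counts of the wild type control.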

How the results depend on the processing

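Of the named single gene ends, 1223 values kept their side of the threshold and 157 lost it, under 23 settings that left out a library and 13 others. No call was lost, in the settings that gave a value, at Mal, Gm28557, Zfp961 and Pvalb in the knockout Firre line against its control, at ENSMUSG00000114616 in the wild type Firre line against its control, at Gm43852 in the shared slope and at Gm7986 in the difference between backgrounds. DESeq2 gave no adjusted p for Pvalb or Gm7986 in these comparisons. It gave none either at Nsd3 and Rin3 in the difference between backgrounds. The same held at Zfp493 and Slc26a1 in the knockout Firre line against its control, and at Csk, Syngr4 and Adgrl3 in the shared slope. Between the controls it gave none at Gm34411, Tspan18, Cass4, Gm16023 and 1600019K03Rik. Medians near 0 changed sign. The knockout control against the wild type control had 173 calls with DESeq2, 5 with promoter share as a covariate and 78 when the 30 and 90 min knockout controls were left out, and 189 to 745 without 1 library. Lower counts came without the knockout control at 30 min (249), 90 min (189) or 120 min (227) and the wild type control at 30 min (256) or 90 min (212), and the higher one without the knockout control at 150 min (745). Its median, -0.06, was 0.0178 with the covariate and -0.15 on total counts. Other scalings shifted its split, to 235 higher and 160 lower with TMM on intervals away from starts, added after seeing the data, 116 and 154 with loess offsets, and 110 and 179 at a mean of at least 50 counts. Over all intervals these settings gave 8437 and 2597, 3353 and 2922, and 4430 and 3278.

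The knockout Firre line against the knockout control had 10 calls with DESeq2, 39 without the 0 min libraries, 33 when those 2 knockout controls were left out (14 higher, 19 lower), and 28 to 82 without 1 library. At a mean of at least 50 counts it had 23 higher and 37 lower, and its median ran from -0.03 to 0.01 without 1 library. The wild type Firre line against its control had 5 calls with loess offsets and 2 to 6 without 1 library. The difference between backgrounds had 5 calls with DESeq2 (0 positive), 7 beyond 3000 bp, 24 with loess offsets, 22 at a mean of at least 50 counts, 6 with the covariate, 5 without the 0 min libraries, 3 without those 2 knockout controls, and 5 to 39 without 1 library. The shared slope had 28 calls with DESeq2, 11 with loess offsets, 35 at a mean of at least 50 counts, 1 with the covariate, 12 on total counts, 20 without those 2 knockout controls, and 1 to 85 without 1 library (85 without the knockout control at 150 min). The causes were not tested.

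The share of counts in the knockout Firre line, wild type Firre line, knockout control and wild type control was 6.79%, 6.88%, 6.86% and 6.87% of counts outside promoters, 2.91%, 3.01%, 2.92% and 3.12% beyond 3000 bp, and 3.55%, 3.69%, 3.54% and 3.80% without chromosome 11. Without 1 library it ran from 3.93% to 3.97%, 4.04% to 4.13%, 3.94% to 4.001% and 4.18% to 4.21% in these lines. No paired analysis was possible because the labels carry no replicate numbers. Time was a term in the line contrasts, and leaving it out moved none of their 4 counts of calls by over 1.5 times. Low counts limit the test: gene ends had a median of 27.3 counts per library, and 739 of 7478 had too few to test.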
